A study of Homo sapiens with 4 samples.

Results

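The FTO and AlkB family comprises 9 human genes, FTO and ALKBH1 to ALKBH8. They were taken by name, and every m6A peak listed on a RefSeq transcript of one of them was used: 11 of the 23623 peaks of the Ctrl immunoprecipitation and 13 of the 23134 peaks of the Cas immunoprecipitation. Of the 9 genes, 8 carried a peak in at least 1 library, out of 10931 named genes with a peak in the whole series.

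HEK293T, a long-established line of human embryonic kidney cells, was examined by MeRIP-seq. Fragments of polyadenylated RNA bound by an antibody to N6-methyladenosine (m6A) are sequenced beside an input saved before the pulldown. Both groups, Ctrl and Cas, carry the same treatment text: a dCas13b-M14 construct and a guide RNA, brought in together with polyethylenimine, and harvest a day later. Cas13b is an RNA-guided nuclease, the d marks a form that does not cut, and what distinguished Ctrl from Cas was not given in the sources used here. The series directed methylation to sites in YTHDF2, SPEN and GAPDH, none of which belongs to the family. There was 1 library per group and kind, so each difference below is one between 2 libraries and has no replicate check. The lists hold positions without reads or scores, so depth is unknown, and a gene without a listed peak is not thereby shown to be unmethylated. The input libraries were not analysed here, and a difference in methylation and a difference in RNA level cannot be told apart.

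Enzymes of the AlkB family use iron, oxygen and 2-oxoglutarate to oxidise their substrates. In many of them an oxidised methyl or other alkyl group then leaves the substrate. FTO and ALKBH5 remove m6A from RNA, and FTO also removes the related m6Am mark beside the mRNA cap. ALKBH2 and ALKBH3 repair alkylated bases in nucleic acids, ALKBH1 acts on transfer RNA, ALKBH8 modifies wobble uridines of transfer RNA, ALKBH4 acts on a lysine of actin and ALKBH7 is mitochondrial. m6A itself is deposited in the sequence context named DRACH (A, G or T, then A or G, then A and C, then A, C or T), often near stop codons and in long exons.

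Sequences are shown for the peaks whose place on the transcript could be read. Each RefSeq transcript was paired with a GENCODE release 29 transcript, called its partner. For ALKBH1, ALKBH2, ALKBH3, ALKBH4, ALKBH6 and ALKBH8 the partner's first base lay within 15 nt of a RefSeq start, between 3 nt (ALKBH1) and 13 nt (ALKBH2 and ALKBH4) away. Positions below may be off by that much or more, since the RefSeq release behind them was not given. At FTO the RefSeq gene began on the partner's first base, but the start of the RefSeq promoter table lay 193 nt downstream of it. At ALKBH5 both RefSeq starts lay 411 nt upstream of the partner's first base. Both genes are therefore described under more than one start. Bases in capitals mark DRACH matches on the transcript strand, and sequences are from GENCODE transcripts (GRCh38), written 5′ to 3′. The first group lies at or near stop codons. ALKBH1 is on the minus strand at chr14:77673812-77673990 (coding) and chr14:77673725-77673749 (3' UTR site). ALKBH4 is on the minus strand at chr7:102457394-102457455, and ALKBH3 on the plus strand in 3 exon pieces between 43901646 and 43919931 of chromosome 11.
ALKBH1 coding end of the shared peak: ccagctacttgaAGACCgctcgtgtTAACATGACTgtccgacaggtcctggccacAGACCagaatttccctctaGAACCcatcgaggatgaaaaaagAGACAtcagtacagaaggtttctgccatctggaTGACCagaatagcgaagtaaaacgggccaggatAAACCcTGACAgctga
ALKBH1 3' UTR site in the shared peak: gtattgccgtGGACTtcagcaccca
ALKBH4 coding end of the shared peak: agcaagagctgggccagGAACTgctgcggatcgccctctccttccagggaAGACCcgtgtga
ALKBH3 bases common to both peaks: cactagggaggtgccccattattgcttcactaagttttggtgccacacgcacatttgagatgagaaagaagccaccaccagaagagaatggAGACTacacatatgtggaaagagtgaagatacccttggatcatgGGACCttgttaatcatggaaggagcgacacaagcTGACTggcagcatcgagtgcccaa

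The second group holds the start codon, shown because peaks of ALKBH2, ALKBH6 and ALKBH8 covered it. ALKBH2 is on the minus strand at chr12:109092779-109092803, ALKBH8 on the minus strand at chr11:107560846-107560893, and ALKBH6 on the minus strand in 3 exon pieces between 36011461 and 36013397 of chromosome 19. In ALKBH8 and ALKBH6 the printed run begins with the start codon, and in ALKBH2 it begins 17 bases before it.
ALKBH2 around the start codon: tttcctgtggGGACAggatGGACAg
ALKBH8 from the start codon: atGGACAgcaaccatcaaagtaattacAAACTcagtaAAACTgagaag
ALKBH6 from the start codon, peak in Cas: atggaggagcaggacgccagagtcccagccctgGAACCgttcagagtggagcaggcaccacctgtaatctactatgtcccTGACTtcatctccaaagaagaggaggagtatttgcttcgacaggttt

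The third group lies inside coding sequence. The FTO stretch (plus strand, chr16:53826069-53826368) is the last 300 of the bases that fall in its first peak in both libraries whichever of its 2 starts is used. The ALKBH8 stretch is on the minus strand at chr11:107504952-107505157.
FTO inside the first peak: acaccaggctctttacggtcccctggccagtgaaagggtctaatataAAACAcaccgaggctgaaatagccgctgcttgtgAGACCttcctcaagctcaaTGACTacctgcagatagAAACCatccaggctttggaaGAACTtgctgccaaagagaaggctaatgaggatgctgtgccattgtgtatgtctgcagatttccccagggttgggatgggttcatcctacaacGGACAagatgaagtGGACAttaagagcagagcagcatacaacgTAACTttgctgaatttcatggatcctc
ALKBH8 in the last exon: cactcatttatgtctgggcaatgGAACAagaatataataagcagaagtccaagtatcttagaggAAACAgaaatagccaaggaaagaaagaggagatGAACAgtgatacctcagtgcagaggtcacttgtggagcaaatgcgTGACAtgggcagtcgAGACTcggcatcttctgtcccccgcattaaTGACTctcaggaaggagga

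Peaks were listed for 7 of the 9 genes in Ctrl and for 8 in Cas, and 7 genes had them in both. Among all 20056 protein-coding genes of the RefSeq table, expressed or not, 49.2% had a Ctrl peak, 46.9% a Cas peak and 44.6% both. The family's shares were 77.8% (Wilson 95% interval 45.3 to 93.7) in Ctrl, 88.9% (56.5 to 98.0) in Cas and 77.8% (45.3 to 93.7) in both. The Ctrl interval held the share of all coding genes, and those for Cas and for both lay above theirs. Of the 8 family members with any peak, 7 (87.5%, interval 52.9 to 97.8) had peaks in both libraries, against 86.7% of all coding genes with any peak. By that last share alone the family stood close to the background. ALKBH6 was in Cas only, as were 2.27% of all coding genes, and no member was in Ctrl only, as were 4.57%. ALKBH7 had no listed peak in either library. Intervals cover the counting of genes or peaks only. The map of peaks along the transcripts gives all of them.

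**Figure D1:**
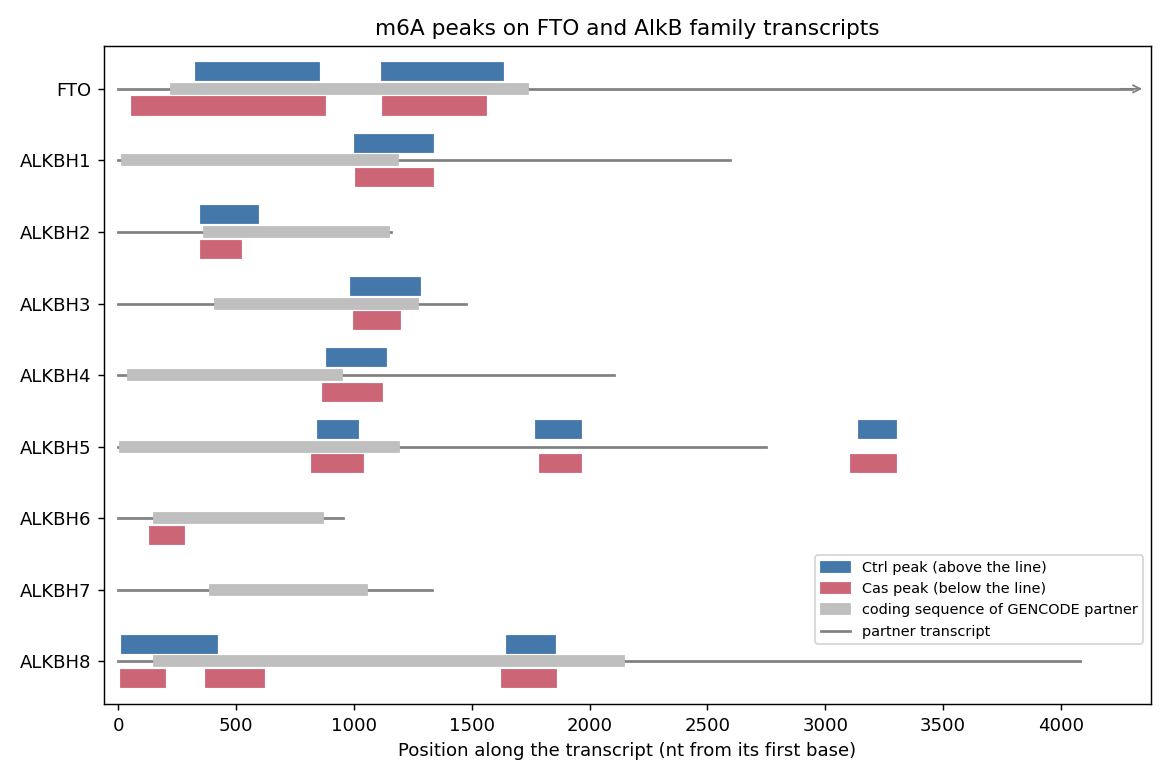
Peaks (blue Ctrl, red Cas) on each transcript, in nt from its first base, with the coding sequence of the GENCODE partner in grey and FTO drawn only in part (arrow). FTO is shown with the partner's start, the third pair of ALKBH5 peaks lies past its partner's end, ALKBH6 has a Cas peak only and ALKBH7 none.

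All 11 Ctrl peaks of the family overlapped a Cas peak on the same transcript by at least 1 base (100%, 74.1 to 100), and 12 of the 13 Cas peaks overlapped a Ctrl peak (92.3%, 66.7 to 98.6). Over the whole lists the shares were 75.8% and 78%. Both whole-list shares lay inside the family's intervals. The Cas peak that met no Ctrl peak was that of ALKBH6.

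FTO (chromosome 16, 53703963 to 54121941 of GRCh38.p14), an m6A and m6Am demethylase whose gene is also known as an obesity-associated locus, carried the widest peaks of the family. On NM_001080432 its Ctrl peaks lay at 331 to 850 and 1121 to 1630, and its Cas peaks at 58 to 876 and 1123 to 1560. The first peak thus began 273 nt earlier in Cas and ended 26 nt later, so that it was 520 bases wide in Ctrl and 819 in Cas. The second began 2 nt apart in the 2 libraries and ended 70 nt earlier in Cas, with widths of 510 and 438 bases. Bases covered came to 1030 in Ctrl and 1257 in Cas, a ratio of 1.22. These are wide peaks for either list: 97.4% and 97.2% of Ctrl peaks and 99.6% and 94.7% of Cas peaks were narrower. Both Ctrl peaks ran from a first base of a 10-base grid to a last base of it, and neither Cas peak did. Over the family 9 of the 11 Ctrl and 10 of the 13 Cas peaks did not. The share over the whole lists is not given here.

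The first FTO peak fell mainly on exon 3, at 628 bases the longest internal exon of the transcript. With the partner's start, 505 of its 520 Ctrl bases and 531 of its 819 Cas bases lay there. With the start of the RefSeq promoter table, 193 nt further downstream, these were 450 and 628 bases, the latter being the whole exon. The second peak moved more in kind. With the partner's start its centre was 364.5 nt before the end of the stop codon in Ctrl and 398.5 nt in Cas, with no stop codon inside. With the other start the centres were 171.5 and 205.5 nt before it and both peaks held the stop codon. The RefSeq gene table has FTO begin on the partner's first base, as the promoter table does not. Which start the deposited positions use was not given in the sources used here. GGACT was counted under each start over 831 transcripts in Ctrl and 819 in Cas whose 2 starts differ by 100 to 1000 nt in this direction. It lay in 24.6% of Ctrl and 23.9% of Cas peaks with the partner's start and in 23.7% and 22.4% with the other. The same peaks were scored under both starts, so their overlapping intervals cannot say whether the shares differ. The start was left unsettled.

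ALKBH5 (chromosome 17, 18183828 to 18209954), the nuclear m6A demethylase, had 3 peaks in each library, the most of any member in Ctrl and as many as ALKBH8 in Cas. On NM_017758 they lay at 849 to 1017, 1771 to 1962 and 3145 to 3298 in Ctrl and at 821 to 1040, 1791 to 1962 and 3111 to 3298 in Cas. The second pair ended on the same base in both libraries, as did the third, and the unnamed further position that the lists give inside each peak was 1838 in both libraries for the second pair. Over all 18188 overlapping pairs 10.1% had the same last position and 12.5% the same further position. In the family these were 2 and 1 of the 12 pairs. Each ALKBH5 peak in Ctrl was narrower than the list's median width of 194 bases, at 169, 192 and 154 bases. In Cas the widths were 220, 172 and 188 bases, and the gene's covered bases were 515 in Ctrl and 580 in Cas. The 3 Ctrl peaks were the narrowest of the family in that library.

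The place of these peaks on the coding sequence was not settled. The third pair ended 550 nt past the end of the 2748 nt partner, and still past its end when the RefSeq gene start, 411 nt upstream, was used. With the smallest shift that holds every peak, 550 nt, the first pair lay in the coding sequence. The second then had centres 126.5 nt (Ctrl) and 136.5 nt (Cas) past the end of the stop codon. This shift is set by the third pair, which by its choice ends on the partner's last base, so that pair's place in the 3' UTR is no result. Under the partner's own start, the centres of the first pair fell in coding bases and those of the second in the 3' UTR. No ALKBH5 sequence is therefore printed.

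ALKBH1 (chromosome 14, 77672404 to 77708023) had 1 peak per library, at 1005 to 1336 in Ctrl and 1008 to 1335 in Cas of NM_006020. The first positions differed by 3 nt and the last by 1 nt, so that the peaks shared 328 bases and had a Jaccard index (shared bases over bases in either peak) of 0.988. This was the closest pair of the family. Its centres lay 15.5 nt (Ctrl) and 14.5 nt (Cas) before the end of the stop codon, inside the last of 6 exons. Both held 16 DRACH matches, where listed peaks within 10% of their width had a median of 8. The 1 GGACT in each is the 3' UTR site printed above. The further position differed by 149 nt (1209 in Ctrl, 1060 in Cas) in spite of the nearly equal ends.

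ALKBH4 (chromosome 7, 102456238 to 102464863) also had 1 peak per library across its stop codon, at 888 to 1137 in Ctrl and 870 to 1120 in Cas of NM_017621. They were 250 and 251 bases wide, with the Cas peak lying 18 nt (first base) and 17 nt (last base) upstream. Centres were 63.5 nt and 46 nt past the end of the stop codon, in the last of 3 exons. The 62 coding bases of the Ctrl peak are those printed above, and the Cas peak held 80.

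ALKBH3 (chromosome 11, 43880831 to 43920274), which repairs alkylated single-stranded nucleic acid, had peaks at 986 to 1278 in Ctrl and 1001 to 1193 in Cas of NM_139178. The Cas peak lay wholly inside the Ctrl peak and was 193 bases wide against 293, a ratio of 0.659. The centres lay 140 nt and 175 nt before the end of the stop codon, in exon 9 of 10, so both centres were near the stop codon but outside the last exon. The Ctrl peak reached the stop codon by the partner's numbering, and the Cas peak ended before it. The Ctrl peak held 9 DRACH matches and the Cas peak 3, and neither held GGACT.

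ALKBH2 (chromosome 12, 109088189 to 109093472), a repair enzyme for alkylated DNA, had peaks at 351 to 591 in Ctrl and 351 to 521 in Cas of NM_001145374. They began on the same base, just before the start codon by the partner's numbering, and the Cas peak ended 70 nt earlier. Widths were 241 and 171 bases. Both peaks lay in exon 2 of 4, with 227 coding bases in Ctrl and 157 in Cas. Here, unlike at ALKBH1, ALKBH3 and ALKBH4, the centre was 679 nt (Ctrl) and 714 nt (Cas) before the end of the stop codon, and the partner's 3' UTR was 9 nt long. The single GGACT of the Ctrl peak was not in the bases shared with Cas.

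ALKBH8 (chromosome 11, 107502727 to 107565735) had 2 peaks in Ctrl and 3 in Cas on NM_138775. In Ctrl they lay at 18 to 418 and 1648 to 1853, and in Cas at 11 to 200, 371 to 620 and 1629 to 1857. The first Ctrl peak of 401 bases thus met 2 Cas peaks, sharing 183 bases with one and 48 with the other (Jaccard 0.449 and 0.0796). Those were the lowest values of the family. The middle of the Ctrl peak, between these, lay in no Cas peak. Both of these Cas peaks had their ends on the 10-base grid. The Ctrl peak and the first Cas peak held the start codon. The downstream pair shared 206 bases (Jaccard 0.900), with centres 396.5 nt and 404 nt before the end of the stop codon, in the coding part of the last of 12 exons. Covered bases were 607 in Ctrl and 669 in Cas.

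At ALKBH2 and ALKBH8 the start codon itself runs into a DRACH match of the GGAC form, as capitals in the printed sequences show. This arrangement was found in 180 of 9256 coding partners of transcripts with a peak (1.94%, 1.68 to 2.25). It was noticed after the sequences were seen and is given as a description.

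ALKBH6 (chromosome 19, 36009120 to 36014239) had a single peak, in Cas, at 135 to 280 of NM_001297701. At 146 bases it was the narrowest of the family, and 27.4% of Cas peaks were narrower. It held the start codon and 2 exon junctions, with 127 coding bases. Exons of AC002116.1 overlap its coordinates, with strand not compared, so its reads may not all come from ALKBH6. ALKBH7 (chromosome 19, 6372794 to 6375250), a mitochondrial member, had no listed peak on any transcript.

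The median width of the family's peaks was above that of its list in both libraries, without a test. It was 250 bases in Ctrl (n = 11) against 194 over the list, and 220 in Cas (n = 13) against 188. In Ctrl the narrowest and widest were 154 bases (ALKBH5) and 520 bases (FTO), and in Cas 146 bases (ALKBH6) and 819 bases (FTO). Order by bases covered was FTO, ALKBH8, ALKBH5 and ALKBH1 in both libraries, followed in Ctrl by ALKBH3, ALKBH4 and ALKBH2 and in Cas by ALKBH4, ALKBH3, ALKBH2 and ALKBH6. With 1 library per group no neighbours in this order can be called different. From Ctrl to Cas the covered bases had ratios between 0.659 (ALKBH3) and 1.22 (FTO) among the 7 genes with peaks in both.

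**Figure D2:**
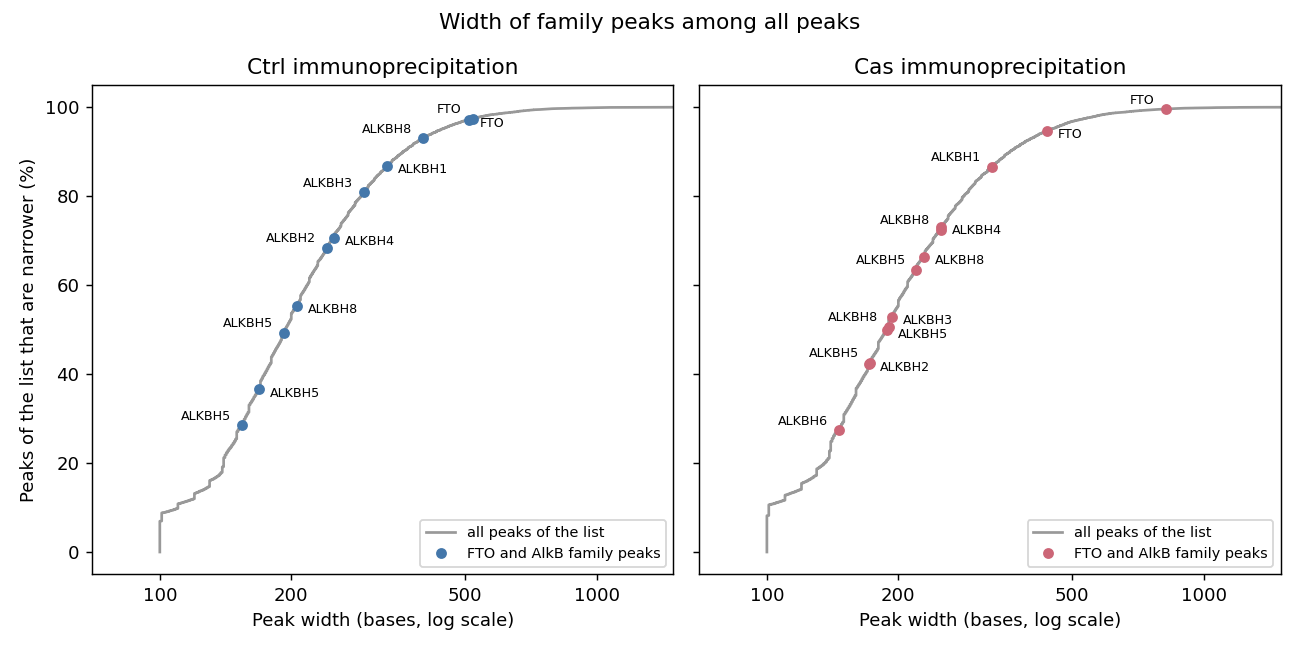
Width of each family peak (points, bases on a log axis) on the curve of all peaks of its list, with the share of narrower peaks on the vertical axis in percent. The 2 FTO peaks sit near the top in both libraries, and the ALKBH5 peaks of Ctrl lie below the median of 194 bases.

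Over the 12 overlapping pairs of family peaks the median Jaccard index was 0.794, with quartiles of 0.653 and 0.876. Over all 18188 overlapping pairs it was 0.756, with quartiles of 0.555 and 0.900. First positions of the family pairs differed by a median of 18.5 nt and last positions by 24.5 nt, where all pairs had 22 nt for each. The plot of overlap by pair shows that ALKBH1 lay above the range between the quartiles of all pairs and both pairs of the first ALKBH8 Ctrl peak below it.

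**Figure D3:**
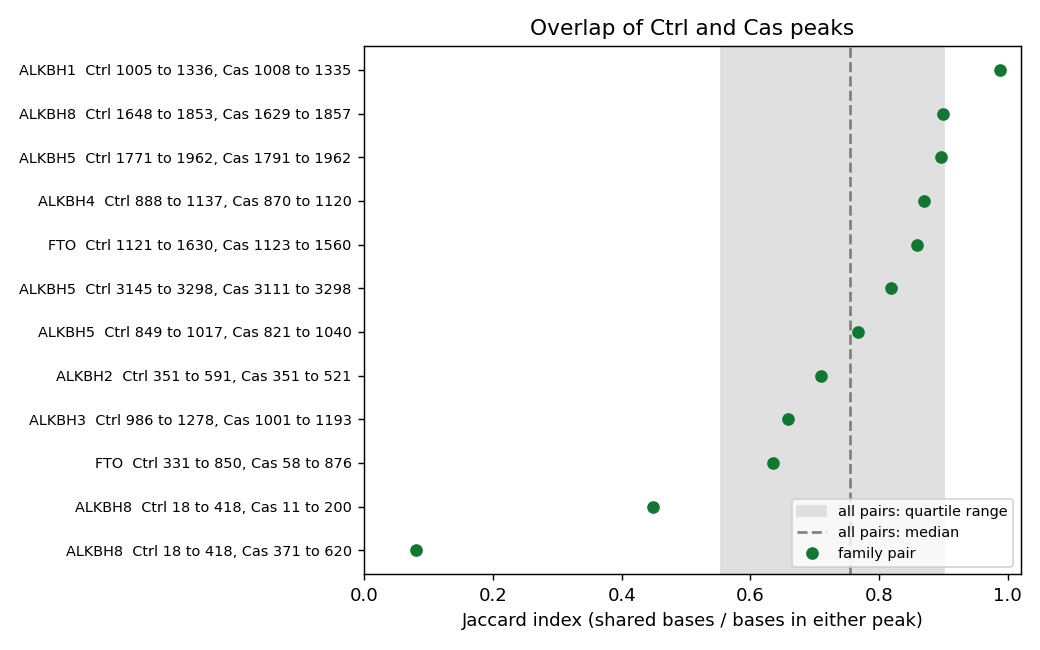
Jaccard index of each overlapping pair of Ctrl and Cas peaks, from 0 (no shared base) to 1 (identical ends), with the quartile range (grey) and median (dashed) of all 18188 pairs. ALKBH1 stands highest at 0.988 and the ALKBH8 pair of 371 to 620 lowest at 0.0796.

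By region, 3 of the 10 Ctrl peaks (30%, 10.8 to 60.3) and 3 of the 12 Cas peaks (25%, 8.89 to 53.2) that lay inside their partner had their centre within 200 nt of the end of the stop codon. These were the peaks of ALKBH1, ALKBH3 and ALKBH4, and ALKBH5 and FTO are counted with the partner's start. Among all peaks on a coding partner the shares were 22.9% and 21.9%, inside both intervals. The coding sequence outside that window held 6 Ctrl (60%) and 7 Cas (58.3%) centres of the family, against 50.3% and 52.5% of all peaks. The start codon lay in 2 Ctrl peaks (20%, 5.67 to 51.0) and in 4 Cas peaks (33.3%, 13.8 to 60.9), against 4.20% and 3.83% of all such peaks. The Cas peaks were those of ALKBH2, ALKBH6, ALKBH8 and FTO, and the FTO peak held it with the partner's start only. The Ctrl peaks were those of ALKBH2 and ALKBH8, so the 2 libraries do not count separate genes. Both shares of all peaks lay below the family's intervals. This comparison was not matched for width, the family's median widths were larger, and no cause was tested. Centres in the last exon numbered 4 in each library, or 40% (16.8 to 68.7) and 33.3% (13.8 to 60.9), against 50.7% and 48.2% of all peaks.

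With the partner's start, DRACH was present in all 10 Ctrl and all 12 Cas peaks that lay inside their partner. It was in 97.3% and 97.0% of all peaks on a coding partner. With peaks moved by the RefSeq gene's 5' end it was in 9 of 10 Ctrl and 12 of 12 Cas peaks. The Ctrl peak that then lacked it was the first of ALKBH5, whose place was not settled. GGACT, a frequent form of DRACH, was in 3 Ctrl peaks (ALKBH1, ALKBH2 and the first of ALKBH8) and in 2 Cas peaks (ALKBH1 and the second of ALKBH8), against 27.1% and 25.3% of all peaks. None of the 4 FTO peaks held GGACT under either start, where among listed peaks within 10% of their widths 45.2% and 46.0% in Ctrl and 53.3% and 41.3% in Cas did. The first FTO peak held GGAC 3 times in Ctrl and 4 times in Cas with the partner's start. Matches were sought on the transcript strand only, and they describe letters, not sites.

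Genes that act beside the family were compared by the same counts. Over all 20056 coding genes 44.6% had peaks in both libraries, 4.57% in Ctrl only and 2.27% in Cas only. Of coding genes with any peak, 86.7% had them in both. The lists are short, and no list was tested against these shares. All 9 m6A writers had a peak, 7 in both libraries, with METTL14 and WTAP in Ctrl only and VIRMA, a scaffold of the writer complex, highest at 6 peaks in each. The 5 writers of m6Am and m1A, marks that FTO and other members remove, all had peaks in both, with TRMT61A highest over the sum of both libraries at 3 in Ctrl and 2 in Cas. In Cas PCIF1, TRMT6 and TRMT10C also had 2. The TET dioxygenases, which oxidise methylcytosine of DNA with the same cofactors, had peaks in both at 3 of 3, with TET1 at 7 and 9. All 3 genes of the ASCC complex, a partner of ALKBH3 in repair, had peaks in both. ASCC1 had 2 in Ctrl and 3 in Cas, and ASCC3, with the same sum, had 3 and 2. Of 10 genes of the wobble uridine pathway in which ALKBH8 acts, 8 had peaks in both. URM1 had 1 peak in Ctrl only, and TRMT112, the partner of the methyltransferase part of ALKBH8, had none. Of 6 other genes of DNA alkylation repair 5 had peaks in both, with XRCC1 highest over the sum of both libraries (3 in Ctrl and 2 in Cas, where LIG3 had 3), and MGMT, which removes alkyl groups from guanine, had none.

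**Figure D4:**
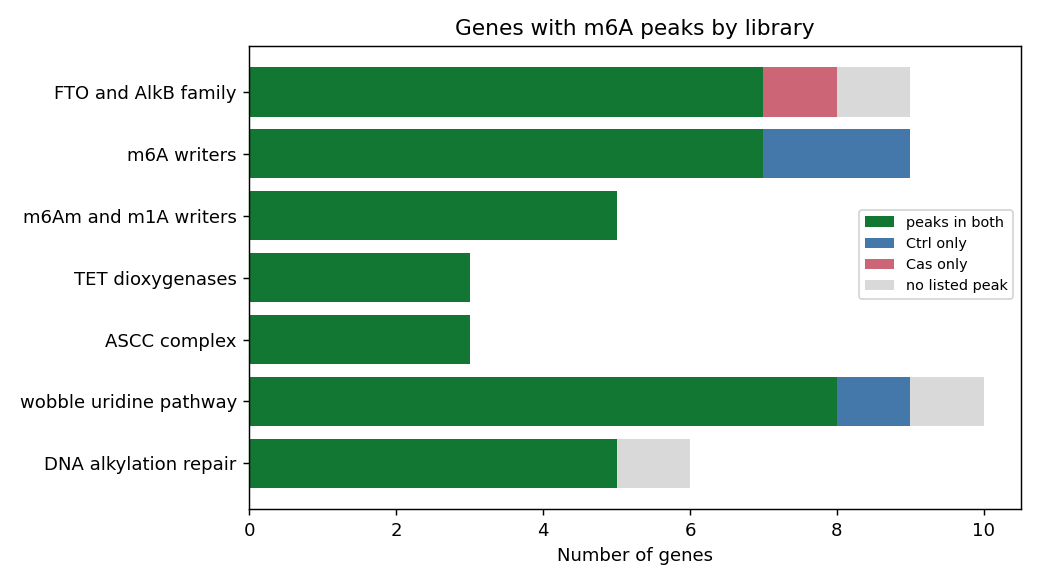
Number of genes of each list with peaks in both libraries, in Ctrl only, in Cas only or in neither. The family has 7, 0, 1 and 1 of its 9 genes in these classes.

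Of the cell type markers, all 4 of HEK293T (LIN28B, IGF2BP1, NEFL and NEFM) had peaks in both libraries. Of 19 markers of blood, liver, muscle, neurons, fibroblasts and endothelium, SYT1 (neurons) and COL1A1 (fibroblasts) had peaks in both, RBFOX3 (neurons) in Ctrl only and 16 had none. Over all coding genes 44.6% had peaks in both.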

How the data were processed

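Peak lists of the 2 immunoprecipitation libraries (1 Ctrl, 1 Cas) were used as deposited. For each peak these lists name the RefSeq transcript and give where on it the peak starts and ends, counted from 1, and a further position of unstated meaning. Per the submitters' processing notes FastQC, fastp, HISAT2, SAMtools, edgeR and HOMER were used, with build GRCh38. Peak caller, threshold and RefSeq release were not given in the sources used here. Transcripts were named from the RefSeq gene table of GRCh38.p14. Each family transcript had 1 partner by GENCODE's release 29 cross-reference, which gave regions, exons and sequence. An overlap of at least 1 base on a transcript counted as shared. Analyses used Python 3.11.15 and scipy 1.17.1, with Wilson 95% intervals, and the overlap, mapping and motif code was tested on simulated data. No test between groups was run, since each had 1 library. All 9 members were named. Of the other lists, genes in 1 library only and the gene with most peaks over both libraries (ties by bases covered) were named, with genes of no listed peak, markers and 5 genes set beside a named one added after values were seen. For the wobble uridine pathway the gene with most peaks is not reported here. Members and lists were chosen with earlier results of these data known.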

Additional observations from a re-analysis of the deposited data

How the results depend on the processing

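Of the alternatives, 57 planned values and 20 added ones stayed within 1.5 times the reported count or width, or within the reported interval, and 14 planned ones moved. The alternatives that moved the starts of FTO and ALKBH5 were chosen after seeing the data. No paired analysis was possible because only 1 library stands for each group. Counting only genes with at least 2 peaks left 3 members in Ctrl, 3 in Cas and 3 in both, with 0 in Cas only. With the wider 50% of each list 1 member, ALKBH2, was in Ctrl only, and the member in Cas only was ALKBH5 in place of ALKBH6. Without peaks on the 10-base grid 2 members were in Cas only, because both Ctrl peaks of FTO lie on it. Of the family peaks left, 77.8% of 9 in Ctrl and 70% of 10 in Cas were shared. With an overlap of at least 50% of each peak the shares were 90.9% and 76.9%. All 4 values lay inside the reported intervals, and whole-list shares under these rules are not given here. Placing peaks by the further position put 1 Ctrl and 2 Cas peaks in the 5' UTR, and with no stop codon window the 3' UTR held 2 Ctrl and 2 Cas peaks. Within 50 nt of the centre GGACT was in 0 of 10 Ctrl and 0 of 12 Cas peaks. The share of all listed peaks in that window is not given here, so these counts have no background. Over whole peaks the shorter GGAC was in 8 Ctrl and 9 Cas peaks, against 62.6% and 60.1% of all peaks. These alternatives keep fewer peaks, ask for more overlap, use another position or search other letters, and no further cause was tested. The lists hold no read counts, so no limit of detection can be given.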
